A study of Homo sapiens with 21 samples.

Results

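Gene expression was compared between SK-MEL-147 cells, an established human melanoma line, given GSK-591 and the same cells given GSK-484. The comparison was chosen by treatment label and holds 6 of the 21 RNA sequencing libraries of the series, 3 for each compound. GSK-591 inhibits the arginine methyltransferase PRMT5. GSK-484 inhibits the peptidylarginine deiminase encoded by PADI4, and its cells served here as a treated reference. Total RNA was taken from cells grown in DMEM with fetal bovine serum, and poly-A RNA was selected. The other libraries are untreated cells and cells given TP-472 (a ligand of the BRD9 and BRD7 bromodomains), UNC0642 (an inhibitor of the methyltransferases EHMT1 and EHMT2), MS023 (an inhibitor of type I arginine methyltransferases) or JQ-1 (a BET bromodomain ligand), with 3 libraries each. Neither dose, nor time, nor vehicle is stated in the sources used here, and all groups share 1 cell line, so the spread between libraries says nothing of other melanomas. A difference between the 2 treated groups can come from either of them, and the TP-472 and UNC0642 cells are used below as a further point of reference.

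PRMT5 places symmetric dimethyl marks on arginines, working as a complex with WDR77 and with adaptors that bring it substrates, among them CLNS1A, RIOK1 and COPRS. Its best known substrates are the Sm proteins of the spliceosome and histone tails, and cells with inhibited PRMT5 are known for altered splicing, among others of MDM4, a repressor of p53. PADI4 turns arginine into citrulline and is best known from neutrophils.

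Library totals were 20978182 to 38265837 expected counts with GSK-591 and 36316241 to 41160857 with GSK-484, of which 7.24 to 9.21% fell on genes of ribosomal RNA. Levels below are CPM (counts scaled to a common library size after TMM scaling). The cells held the melanoma and neural crest gene SOX10 at 374 to 479 CPM, while pigment genes were at or near 0: TYR had no count in any of the 6 libraries, and the mean levels of PMEL, MLANA, TYRP1 and DCT were below 0.39 CPM. Markers of other cell types (25 genes, 13 tested, none called by edgeR or DESeq2, 2 at an unadjusted p below 0.05) summed to 236 to 244 CPM with GSK-591 and 204 to 234 CPM with GSK-484, almost all of it CD68, KRT8 and KRT18; KRT5, HBB, HBA1 and DCN were among those at 0 in both groups. The GSK-484 group was the more variable, with a coefficient of variation between libraries of 7.34% against 4.31% for GSK-591 and 5.09% over all groups. Within it, replicate 1 stood apart: the chi-square over genes, divided by its degrees of freedom, was 16.1 and 19.6 against replicates 2 and 3, and 6.23 between those. On the first principal component of the 6 libraries (26.6% of the variance), GSK-591 replicate 2, the smallest library, lay furthest out, at -35.1 beside -2.23 to 17.4 for the others. The main values are therefore also given without each of these libraries. Replicates are described as biological, but whether they were separate cultures is not said. The p-values here rest on the spread between replicates pooled over the groups of all 21 libraries, and part of that may be technical.

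PRMT5 itself was measured at 84.6, 85.8 and 86.3 CPM in the GSK-591 libraries and at 84.6, 82.4 and 82.5 CPM in the GSK-484 libraries. The 2 groups differed by a log2 fold change of 0.041 (SE 0.031, edgeR adjusted p = 0.546), and its counts were fractional, meaning that some reads were shared with other genes. Both compounds act on proteins, so these transcripts do not check the labels. WDR77, the partner that PRMT5 needs for activity, stood at 27.1, 25.7 and 27.2 CPM against 30.6, 25.8 and 25.1 CPM, and the groups overlapped. Of 8 tested PRMT family genes and 9 tested genes of PRMT5 partners and substrate adaptors, none passed the edgeR test (2 and 0 at an unadjusted p below 0.05; DESeq2 called 1 and 0), with medians of 0.021 and -0.023 on the log2 scale. Both medians changed sign under some alternatives, that of the partners without GSK-484 replicate 1. The nearest to the threshold was PRMT1, the main type I enzyme, at 224, 216 and 221 CPM against 186, 208 and 193 CPM (log2 fold change 0.17 with an SE of 0.051, adjusted p = 0.0786 by edgeR). It was the member that DESeq2 called, with an adjusted p of 0.0306. The GSK-484 target was almost absent: PADI4 had 3, 0 and 1 counts with GSK-591 and 5, 6 and 2 counts with GSK-484 and was not tested. PADI3 was the only deiminase gene tested, at 1.35 to 1.77 CPM over the 6 libraries (log2 fold change -0.10 with an SE of 0.21, adjusted p = 0.864 by edgeR).

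Small differences were found in a limited number of genes. With GSK-591, 205 genes were higher and 194 lower than with GSK-484, 399 of the 15062 tested (2.65%, 1.36% higher and 1.29% lower; edgeR quasi-likelihood test, Benjamini-Hochberg adjusted p below 0.05). The median called gene differed 1.167-fold, 260 of the 399 differed by less than 1.2-fold, and 9 reached 1.5-fold (3 higher, 6 lower). In all 399 the 3 and 3 libraries did not overlap, which held for 18.6% of all tested genes (9.37% higher, 9.2% lower). Separate groups in a called gene named below therefore add nothing to its call. In bulk RNA, fewer cells of a type and less RNA per cell cannot be told apart.

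The number of calls differed with the libraries in the fit. Fitted alone, the 6 libraries gave 0 calls with edgeR (1776 genes at an unadjusted p below 0.05, smallest adjusted p 0.0539) and 144 with DESeq2 (86 higher, 58 lower), 130 of which were among the 399. Under total-count scaling 46 genes were higher and 237 lower, so that 16.3% of the calls were higher in place of 51.4%; the median of all genes was -0.036 under that scaling and -0.0027 under TMM. Without GSK-591 replicate 1, 2 or 3 the count was 108, 141 and 170, and without GSK-484 replicate 1, 2 or 3 it was 361, 331 and 214. All 399 genes kept their direction in those 6 fits, which groups without overlap all but fix in advance. In every one of them 72 (41 higher, 31 lower) were called, and such genes are called robust below. The word covers these 6 fits only, which still take their spread from the other groups as well. None of the 72 was called by edgeR with the 2 groups alone or at a 1.2-fold threshold. Without GSK-484 replicate 1 alone, 75 of the 102 called genes of the named set kept their call, and those that lost it include INPP5D, MDC1, ALG8, ODC1, TNFRSF10B, POLA1, CDC25A, FANCL, BRCA1, PSAT1, SARS, CAV1, BMP1, TGFB1, DKK3, SPRY2, RPL14, CFLAR and SNRNP27.

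**Figure D1:**
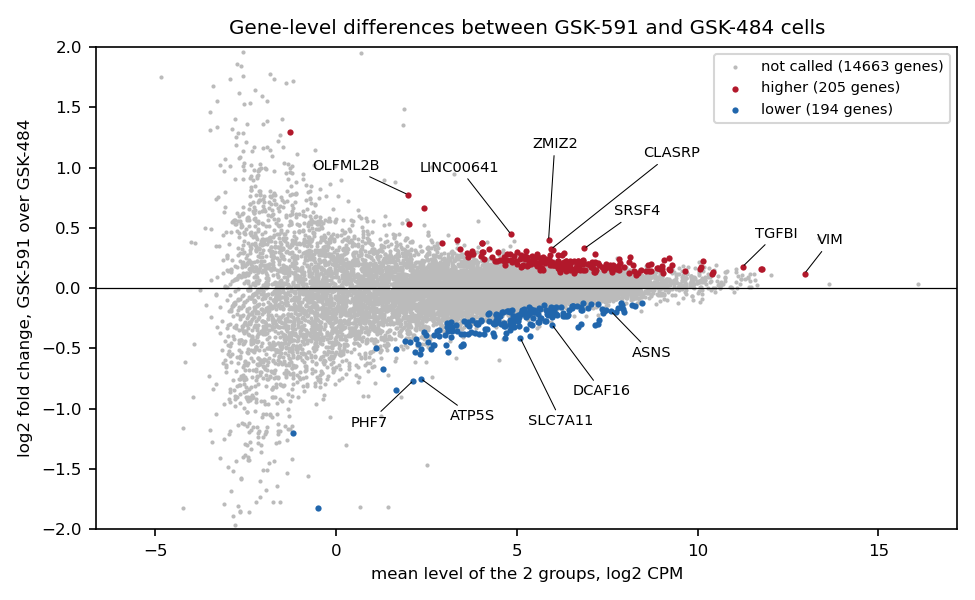
Log2 fold change of GSK-591 over GSK-484 cells (vertical axis) against the mean level of both groups in log2 CPM (horizontal axis), 1 point per tested gene: 205 called higher (red), 194 called lower (blue), the rest grey. 31 genes lie outside the vertical range and 5 with no count in either group are not drawn; SRSF4, ZMIZ2 and DCAF16 are called at small differences, and the largest differences are in genes of low level.

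Among higher genes with whole counts and at least 3 CPM, OLFML2B and INPP5D differed most. OLFML2B, an olfactomedin-domain protein of the extracellular space (chr1:161983192-162023854, minus strand, hg38), stood at 5.12, 5.20 and 4.71 CPM with GSK-591 and 3.04, 2.74 and 2.97 CPM with GSK-484. The groups differed 1.712-fold (log2 fold change 0.78 with an SE of 0.13, adjusted p = 0.00268 by edgeR), and the gene was robust. INPP5D, the inositol phosphatase SHIP1 of blood cells, stood at 5.41, 4.33 and 4.58 CPM against 3.28, 3.41 and 3.27 CPM (log2 fold change 0.53 with an SE of 0.14, adjusted p = 0.0387 by edgeR) and was called in none of the 6 fits that leave out a library. The noncoding RNA LINC00641 followed, at 30.3, 35.4 and 33.2 CPM against 22.8, 24.9 and 24.6 CPM (log2 fold change 0.45, SE 0.062).

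ZMIZ2, a PIAS-like coactivator, stood at 67.9, 65.4 and 67.3 CPM against 47.4, 55.5 and 49.7 CPM (chr7:44748581-44769881, plus strand), a log2 fold change of 0.40 (SE 0.050, edgeR adjusted p = 0.000432). The 3 GSK-591 libraries lay close together. Next came 2 genes of the splicing machinery, SRSF4 and CLASRP, described below. The remaining rises among the 10 largest were MDC1 (a mediator of the DNA damage checkpoint), C14orf159, ZDHHC6 (a palmitoyltransferase) and ALG8 (a glucosyltransferase of N-glycan synthesis), by 0.30 to 0.32 on the log2 scale. Of these, MDC1 leaned on the GSK-484 library that stood apart: it was at 48.9 CPM there and at 64.4 and 57.6 CPM in the other two, and without that library its log2 fold change was 0.21 (edgeR adjusted p = 0.071, from 0.31 and 0.0205 with it). NELFCD, a subunit of the complex that holds RNA polymerase II near promoters, was among the 5 rises with the smallest p, at 109.6, 115 and 109 CPM against 95.0, 97.3 and 93.4 CPM (log2 fold change 0.22 with an SE of 0.034, adjusted p = 0.00132 by edgeR).

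Of the 9 genes past 1.5-fold, 6 were lower. PHF7, a ubiquitin ligase best known from testis (chr3:52410657-52423641, plus strand), stood at 3.22, 3.18 and 3.32 CPM with GSK-591 and 5.61, 5.34 and 5.65 CPM with GSK-484. ATP5S, a factor of the mitochondrial ATP synthase (chr14:50312326-50335558, plus strand), stood at 3.35, 4.09 and 3.96 CPM against 5.86, 6.34 and 6.96 CPM. Both were robust, with log2 fold changes of -0.77 (SE 0.13) and -0.75 (SE 0.11) and edgeR adjusted p = 0.00358 and 0.000823. The largest fall by the rule was that of LOC171391, at 1.80, 2.69 and 2.30 CPM against 4.63, 3.25 and 4.20 CPM (log2 fold change -0.85, SE 0.16), called in 5 of the 6 fits without a library. SLC35G1, a membrane transporter gene, stood at 8.72, 9.05 and 9.46 CPM against 11.6, 12.7 and 13.8 CPM (log2 fold change -0.48, SE 0.083) and was robust. The other 6 of the 10 largest falls (IPO5P1, KIAA1919, LOC100131564, CYP4V2, WDR17 and C22orf46) lay between -0.55 and -0.47, and each lost its call without at least 2 of the libraries.

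Among genes with whole counts and higher levels, DCAF16, ILKAP and IFT80 were among the falls with the smallest p. DCAF16, a substrate receptor of the CUL4 ubiquitin ligase (chr4:17800655-17810758, minus strand), stood at 54.3, 56.2 and 57.9 CPM against 67.8, 69.4 and 70.8 CPM. Its log2 fold change was -0.30 (SE 0.041, edgeR adjusted p = 0.000692). ILKAP, a phosphatase that acts on integrin-linked kinase, stood at 17.8, 16.3 and 18.7 CPM against 22.8, 23.2 and 22.9 CPM. IFT80, a component of ciliary transport, stood at 26.2, 25.9 and 26.7 CPM against 31.3, 31.6 and 33.6 CPM. All 3 genes were robust. Their groups did not overlap, which the rule for naming them required.

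**Figure D2:**
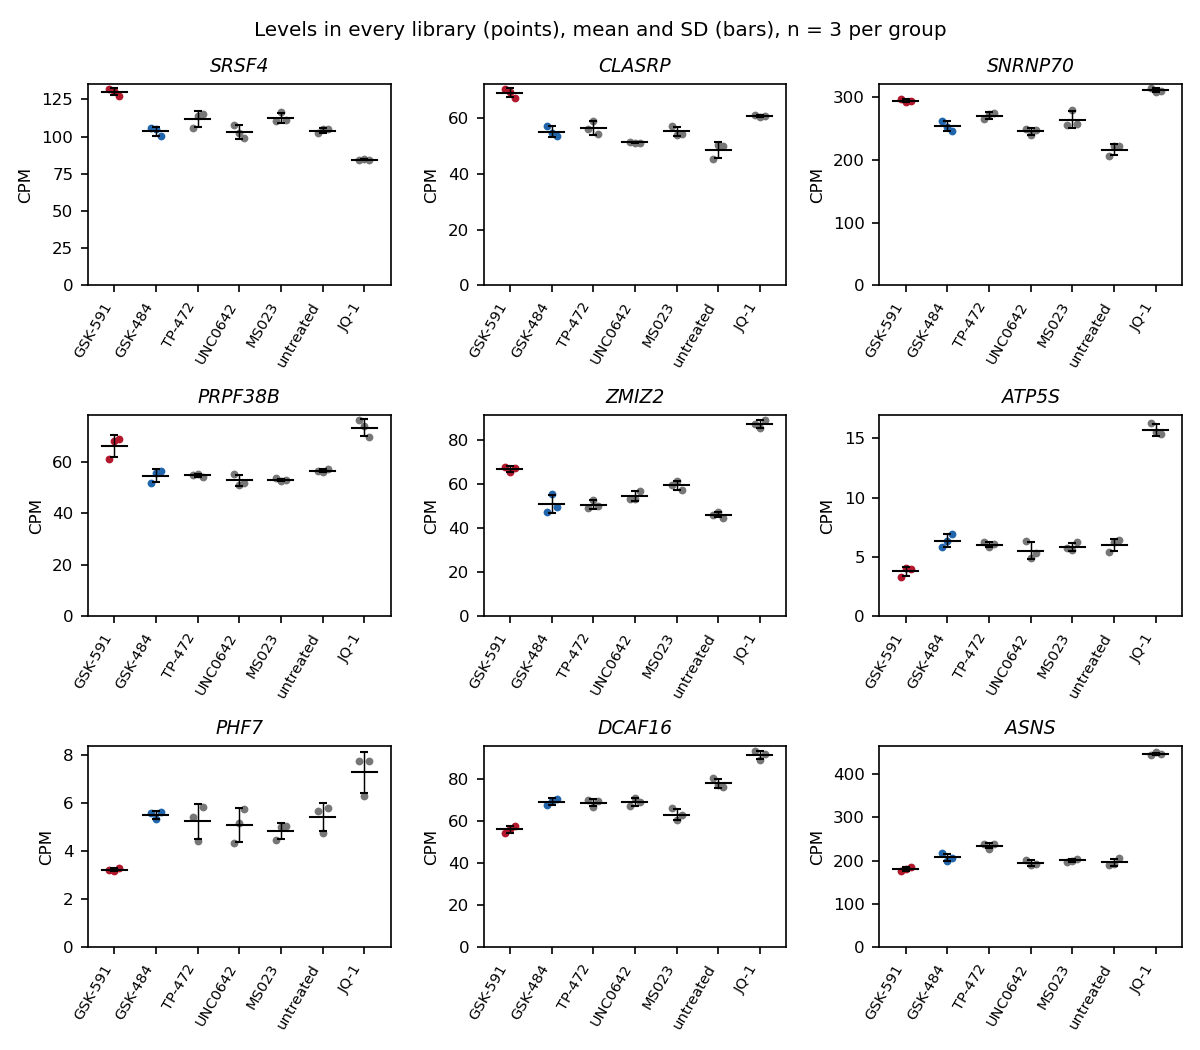
Levels in CPM (vertical axes, from 0) of 9 genes in every library (points), with mean and SD bars for the 7 groups, n = 3 each. SRSF4, CLASRP, SNRNP70, PRPF38B and ZMIZ2 are higher in the GSK-591 libraries (red) than in the GSK-484 libraries (blue), and ATP5S, PHF7, DCAF16 and ASNS are lower.

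Genes of the splicing machinery were found among the higher genes. SRSF4, a serine and arginine rich (SR) splicing factor (chr1:29147743-29181987, minus strand), stood at 132, 131 and 128 CPM with GSK-591 and 106, 105 and 100.2 CPM with GSK-484. That 1.255-fold difference (log2 fold change 0.33 with an SE of 0.039, adjusted p = 0.000424 by edgeR) had the smallest p of all genes tested. CLASRP, an SR-like protein that binds the kinase CLK4 (chr19:45039040-45070956, plus strand), stood at 70.4, 69.4 and 67.2 CPM against 57.2, 54.6 and 53.4 CPM (log2 fold change 0.32 with an SE of 0.044, adjusted p = 0.000692 by edgeR). Both genes were robust, and the rule for naming them required groups without overlap.

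Of 22 tested SR factors and their regulators, 2 were higher (SRSF4 and TRA2B), none lower, and the median was 0.042 beside -0.0027 for all genes. That was 9.09% called, beside 2.65% of all genes (1.36% higher and 1.29% lower). The same share of all genes stands beside the counts of the lists below. TRA2B, an activator of exon inclusion, stood at 204, 197 and 209 CPM against 184, 171 and 180.0 CPM (log2 fold change 0.19 with an SE of 0.041, adjusted p = 0.0147 by edgeR). The SR kinase CLK1 was just outside the threshold, at 91.7, 93.8 and 93.7 CPM against 84.6, 84.4 and 85.6 CPM (edgeR adjusted p = 0.054). The count of 2 was 1, 2 and 1 without GSK-591 replicate 1, 2 or 3, and 5, 1 and 4 without GSK-484 replicate 1, 2 or 3. Named after its values were seen, SRSF1 gave 248, 260.5 and 259 CPM against 277, 273 and 266 CPM, and was not called (edgeR adjusted p = 0.256).

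The Sm and LSm proteins, which hold the sites PRMT5 methylates, showed little difference at the transcript. Of 26 tested, 1 was called, SNRNP70, the U1-specific protein that the list holds beside the Sm ring (chr19:49085419-49108605, plus strand). SNRNP70 stood at 297, 293 and 294 CPM against 262, 253 and 247 CPM (log2 fold change 0.21 with an SE of 0.038, adjusted p = 0.00398 by edgeR) and was robust. SNRPB, the gene of SmB, stood at 426, 405 and 406 CPM against 433, 380.0 and 379 CPM, with a log2 fold change of 0.053 (SE 0.054); it too was named after its values were seen. None of the 17 genes of the SMN complex and snRNP import, which assemble the Sm ring, was called by edgeR (1 at an unadjusted p below 0.05) or by DESeq2.

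A wider list of 97 spliceosome proteins was drawn up after the values had been seen, so its count is a description only. 17 of the 97 were higher and 2 lower (19.6% called, beside 2.65% of all genes), with a median of 0.037. The number called was 3 of 11 in the U1 particle, 6 of 25 in the U2 particle with its branch site factors, 6 of 23 in the U4/U6.U5 tri-snRNP, and 4 of 38 in the PRP19 complex and catalytic step. Without GSK-591 replicate 1, 2 or 3 the 19 calls became 13, 11 and 10, and without GSK-484 replicate 1, 2 or 3 they became 21, 17 and 12. Under total-count scaling 12 were called.

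In the tri-snRNP, the particle that brings U4, U6 and U5 to the assembled intron, the 6 called genes were all higher: PRPF3, SART1, USP39, SNRNP27, DDX23 and PRPF38B. PRPF38B stood at 61.0, 68.0 and 68.8 CPM against 51.6, 55.7 and 56.3 CPM (log2 fold change 0.27 with an SE of 0.048, adjusted p = 0.00383 by edgeR). PRPF3, a U4/U6 protein, stood at 56.4, 62.1 and 64.1 CPM against 50.3, 52.1 and 51.9 CPM. USP39, which is required for tri-snRNP recruitment, stood at 81.3, 85.3 and 81.5 CPM against 71.7, 71.7 and 71.2 CPM. These 3 genes were robust.

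Among factors that recognise the branch site, SMNDC1 (SPF30), which contains a Tudor domain that reads methylated arginine, had the largest difference: 79.1, 77.2 and 76.8 CPM against 65.2, 64.3 and 63.1 CPM (log2 fold change 0.28 with an SE of 0.045, adjusted p = 0.00268 by edgeR). DDX46, a helicase of the early spliceosome, stood at 142, 156 and 152 CPM against 128, 126 and 135 CPM and was also robust. U2AF2, the large subunit of the polypyrimidine tract factor, differed by 0.15 (SE 0.039) and was called in 1 of the 6 fits without a library. The 2 lower members were U2SURP (log2 fold change -0.18, SE 0.048) and the export helicase DDX39B (-0.20, SE 0.035), the latter with fractional counts.

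The RNA-binding proteins of the HNRNP list went the other way in 2 of 27 tested members (7.41% called, beside 2.65% of all genes). TAF15 stood at 121, 136 and 155 CPM against 165, 178 and 164 CPM (log2 fold change -0.30 with an SE of 0.068, adjusted p = 0.0205 by edgeR). EWSR1, its close relative in the FET family, stood at 271, 282 and 278 CPM against 303, 313 and 300.1 CPM (log2 fold change -0.14 with an SE of 0.031, adjusted p = 0.0196 by edgeR). Each of these 2 genes lost its call in 3 of the 6 fits. Without GSK-591 replicate 1, 2 or 3 the list held 0, 1 and 1 calls. It held 2, 0 and 2 without GSK-484 replicate 1, 2 or 3. NEAT1, the scaffold RNA of paraspeckles, was lower and robust, at 136, 144 and 144 CPM against 175, 168 and 168 CPM (log2 fold change -0.27, SE 0.038), though its counts were fractional.

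**Figure D3:**
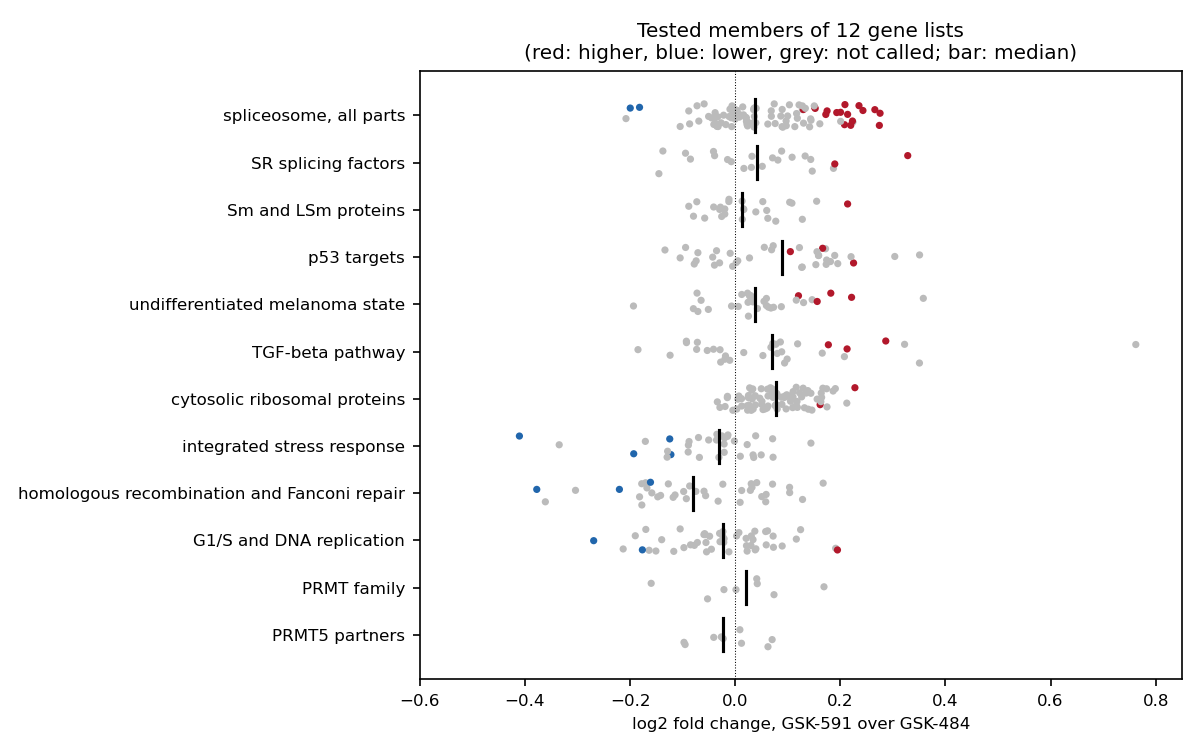
Log2 fold change of GSK-591 over GSK-484 cells (horizontal axis) for the tested members of 12 gene lists, 1 point per gene, with the list median as a bar (red called higher, blue called lower, grey not called). 1 member of the p53 list lies outside the axis; the spliceosome list has 17 higher and 2 lower of 97, and the PRMT family and PRMT5 partners have none called.

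Targets of p53, which acts on cell cycle arrest and death, were higher in 3 of 38 tested members and lower in none. That was 7.89% called, beside 2.65% of all genes, with a median of 0.089. PLK2, a kinase gene of the p53 response, stood at 181, 187 and 186 CPM against 162, 166 and 166 CPM (log2 fold change 0.17 with an SE of 0.031, adjusted p = 0.00592 by edgeR) and was robust. BBC3, which encodes the death inducer PUMA, stood at 35.2, 33.8 and 32.0 CPM against 31.0, 27.8 and 27.5 CPM (log2 fold change 0.23 with an SE of 0.050, adjusted p = 0.0199 by edgeR). TNFRSF10B, the TRAIL receptor DR5, differed by 0.10 (SE 0.028, edgeR adjusted p = 0.0481) and was called in none of the 6 fits without a library. The 3 calls became 1, 1 and 2 without GSK-591 replicate 1, 2 or 3, and 5, 1 and 2 without GSK-484 replicate 1, 2 or 3.

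The best known p53 targets did not pass, and their values were looked up after the others had been seen. CDKN1A, the cell cycle inhibitor p21, stood at 431, 423 and 423 CPM against 416, 384 and 374 CPM, with a log2 fold change of 0.12 (SE 0.040, edgeR adjusted p = 0.101). MDM2 was at 80.4, 86.6 and 85.8 CPM against 81.2, 82.1 and 91.0 CPM, and the groups overlapped. MDM4, whose splicing is known to depend on PRMT5, was at 117, 125 and 120.3 CPM against 115, 116 and 129 CPM (log2 fold change 0.002, SE 0.043); its isoforms are not resolved in gene counts. Of 33 apoptosis regulators, BMF (log2 fold change 0.19, SE 0.050) and BBC3 were higher and CFLAR lower (-0.17, SE 0.046, fractional counts). This list held 0, 0 and 2 calls without GSK-591 replicate 1, 2 or 3, 3, 0 and 0 without GSK-484 replicate 1, 2 or 3, and 0 after thinning.

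Cell cycle and repair genes moved in both directions and in few members. RRM2, the small subunit of ribonucleotide reductase, stood at 231, 231 and 234 CPM against 265, 253 and 268 CPM (log2 fold change -0.18 with an SE of 0.031, adjusted p = 0.00405 by edgeR). MCM3, part of the replicative helicase, stood at 69.1, 69.7 and 71.7 CPM against 63.7, 62.1 and 58.2 CPM (log2 fold change 0.19 with an SE of 0.038, adjusted p = 0.00783 by edgeR). These 2 robust genes, on opposite sides, and POLA1 (-0.27, SE 0.073) were the calls among 49 tested genes of G1/S and DNA replication, with a median of -0.023, which was slightly above zero without GSK-484 replicate 1.

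In the G2/M list, 1 of 45 tested genes was higher and 1 lower (4.44% called, beside 2.65% of all genes). The mitotic kinase gene PLK1 stood at 90.8, 91.9 and 89.3 CPM against 75.1, 82.4 and 80.3 CPM (log2 fold change 0.19 with an SE of 0.037, adjusted p = 0.00644 by edgeR). The phosphatase gene CDC25A was lower by a log2 fold change of -0.21 (SE 0.056, edgeR adjusted p = 0.0493), and was called in none of the 6 fits without a library. Homologous recombination and Fanconi genes had 3 of 38 lower and none higher (7.89% called), with a median of -0.081. Among these, BRCA1 stood at 20.2, 20.3 and 20.9 CPM against 23.9, 23.8 and 23.8 CPM (log2 fold change -0.22 with an SE of 0.060, adjusted p = 0.0491 by edgeR); FANCI (-0.16, SE 0.040) and FANCL (-0.38, SE 0.084) had fractional counts. Without GSK-591 replicate 1, 2 or 3 the repair list held 0, 1 and 0 calls, and without any 1 GSK-484 library it held 1.

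Genes of the integrated stress response, the ATF4 programme of amino acid supply, were lower in 4 of 33 tested members and higher in none. That was 12.1% called, beside 2.65% of all genes, with a median of -0.031. ASNS, which makes asparagine (chr7:97852118-97872542, minus strand), stood at 177, 182 and 186 CPM against 216, 199 and 207 CPM (log2 fold change -0.19 with an SE of 0.039, adjusted p = 0.00949 by edgeR). PSAT1, an enzyme of serine synthesis, stood at 325, 344 and 339 CPM against 368, 361 and 369 CPM (log2 fold change -0.12 with an SE of 0.030, adjusted p = 0.0304 by edgeR). The seryl tRNA synthetase gene SARS was lower by a log2 fold change of -0.12 (SE 0.033, edgeR adjusted p = 0.0473). SLC7A11, the cystine transporter, had the largest difference, at 29.5, 31.1 and 27.4 CPM against 38.9, 37.6 and 39.9 CPM (log2 fold change -0.41 with an SE of 0.063, adjusted p = 0.00173 by edgeR); it was robust, with fractional counts. The 4 calls became 1, 4 and 2 without GSK-591 replicate 1, 2 or 3, and 3, 4 and 2 without GSK-484 replicate 1, 2 or 3.

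The regulators themselves did not pass the test. ATF4 stood at 562, 598 and 599 CPM against 616, 584 and 576 CPM (log2 fold change -0.015, SE 0.041), and DDIT3 at 25.9, 25.7 and 28.7 CPM against 27.0, 24.6 and 27.1 CPM. Both were looked up after other values had been seen, as were 3 further genes of the response. CHAC1 (log2 fold change -0.088, SE 0.060), AARS (-0.020, SE 0.035) and ATF3 (0.14, SE 0.063) were not called.

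The response element of ATF4 and its partners is spelled TGATGNAA here, or TTNCATCA on the other strand, and was searched on both strands from 250 bases before to 50 bases after the RefSeq start (GRCh38.p14). It was found in 10 of 30 promoters of the list (33.3%) and in 202 of the 11017 promoters of genes tested (1.83%). Within the list 1 of 3 promoters of lower genes held it (ASNS, with PSAT1 and SARS the others), and 9 of 27 of the genes not called lower. The promoter of SLC7A11, the remaining lower gene, was not in the set searched. The window around the element, 5′ to 3′ on the gene's strand with the element in capitals, is printed for ASNS (chr7:97872434-97872511), which was lower, and for CHAC1 (chr15:40953227-40953304) and AARS (chr16:70289651-70289728), which were not called.
ASNS: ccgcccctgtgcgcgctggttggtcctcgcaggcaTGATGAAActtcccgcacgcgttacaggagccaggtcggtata
CHAC1: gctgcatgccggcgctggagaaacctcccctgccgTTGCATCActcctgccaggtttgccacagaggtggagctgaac
AARS: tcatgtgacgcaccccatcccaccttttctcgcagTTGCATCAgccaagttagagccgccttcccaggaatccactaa
ASNS holds the element in forward orientation, and CHAC1 and AARS hold it in reverse. A match of letters is a description of the sequence, not of binding.

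The methionine cycle supplies S-adenosylmethionine, the methyl donor of PRMT5, and feeds polyamine synthesis. Of 25 tested genes, 2 were lower and none higher (8.0% called, beside 2.65% of all genes). MAT2A, which makes S-adenosylmethionine, stood at 231, 228 and 232 CPM against 243, 262 and 255 CPM (log2 fold change -0.14 with an SE of 0.032, adjusted p = 0.0221 by edgeR; fractional counts). ODC1, the first enzyme of polyamine synthesis, stood at 152, 152 and 158 CPM against 189, 167 and 164 CPM (log2 fold change -0.17 with an SE of 0.043, adjusted p = 0.0321 by edgeR). Both genes lost their call without any 1 GSK-591 library. MAT2A was called without GSK-484 replicate 1 and not without replicate 2 or 3, and ODC1 was called without replicate 2 or 3 and not without replicate 1. MTAP, which salvages methionine and whose loss sensitises cells to PRMT5 inhibitors, was expressed in both groups and not called (log2 fold change -0.041, SE 0.042).

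Several genes of the undifferentiated melanoma state, an invasive state low in pigment genes, were higher. They were 4 of 32 tested (12.5% called, beside 2.65% of all genes), with none lower and a median of 0.038. CTGF, a matricellular target of YAP, stood at 214, 199 and 203 CPM against 185, 184 and 184 CPM (log2 fold change 0.16 with an SE of 0.031, adjusted p = 0.00917 by edgeR). FOSL1, an AP-1 subunit downstream of MAPK signalling, stood at 547, 548 and 543 CPM against 454, 496 and 494 CPM (log2 fold change 0.18 with an SE of 0.039, adjusted p = 0.0145 by edgeR). The intermediate filament gene VIM (log2 fold change 0.12, SE 0.031) and the caveolae gene CAV1 (0.22, SE 0.054) were the others. Under total-count scaling none of the 4 was called. Without GSK-591 replicate 1, 2 or 3 the list held 0, 1 and 2 calls, and without GSK-484 replicate 1, 2 or 3 it held 3, 2 and 3.

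SOX10 was also higher, at 479, 441 and 438 CPM against 374, 409 and 397 CPM (log2 fold change 0.20 with an SE of 0.041, adjusted p = 0.0099 by edgeR), with fractional counts. It was the only call among 18 tested genes of the melanocyte lineage. MITF, the lineage regulator, was looked up after other values had been seen and was low in both groups, at 9.56, 9.62 and 10.1 CPM against 9.24, 10.9 and 11.0 CPM.

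In the TGF-beta pathway 3 of 32 tested genes were higher and none lower (9.38% called, beside 2.65% of all genes), with a median of 0.070. The ligand gene TGFB1 stood at 53.8, 50.8 and 51.2 CPM against 40.0, 45.3 and 42.5 CPM (log2 fold change 0.29 with an SE of 0.072, adjusted p = 0.0352 by edgeR). TGFBI, a secreted matrix protein named for its induction by that ligand, stood at 2564, 2598 and 2575 CPM against 2251, 2319 and 2272 CPM (log2 fold change 0.18 with an SE of 0.029, adjusted p = 0.00268 by edgeR). BMP1, a protease that matures collagen, stood at 70.2, 69.2 and 65.0 CPM against 55.3, 61.8 and 59.1 CPM. Of these 3 genes, TGFBI alone was robust. Calls numbered 1, 1 and 2 without GSK-591 replicate 1, 2 or 3, and 1, 3 and 1 without GSK-484 replicate 1, 2 or 3; total-count scaling gave 1.

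Feedback genes of the MAPK pathway were higher in 3 of 35 tested members (8.57% called, beside 2.65% of all genes). DUSP4, a phosphatase of ERK, stood at 193, 191 and 194 CPM against 171, 168 and 174 CPM (log2 fold change 0.17 with an SE of 0.032, adjusted p = 0.00572 by edgeR) and was robust. SPRY2, an inhibitor of receptor signalling, differed by 0.15 (SE 0.036), and FOSL1 is described above. Total-count scaling left none of these calls, and without GSK-591 replicate 1, 2 or 3 the list held 1, 1 and 2 calls. Among 51 matrix and integrin genes SPARC was the only call (log2 fold change 0.12, SE 0.026), and among 28 WNT genes it was the antagonist DKK3 (0.14, SE 0.033). These shares, 1.96% and 3.57%, lay near that of all genes.

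Ribosomal protein genes lay slightly above zero as a set, by less than the spread between libraries. Of 80 tested, 74 had a positive log2 fold change, but genes of a set share the same libraries. The median was 0.078, and the list median varied between libraries of a group with a pooled SD of 0.090. The 2 calls (2.5%, beside 2.65% of all genes) were both higher, among them RPL14 (0.16, SE 0.044, edgeR adjusted p = 0.0496). The median stayed positive under every alternative, from 0.020 without GSK-591 replicate 3 to 0.13 without GSK-484 replicate 1. DESeq2 called 12 of the 80 and total-count scaling none. Without GSK-591 replicate 1, 2 or 3 there were 0, 1 and 0 calls, and without GSK-484 replicate 1, 2 or 3 there were 4, 2 and 0.

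Of 44 ribosome biogenesis genes, 2 were higher and none lower (4.55% called, beside 2.65% of all genes). NOP58, a core protein of the box C/D particles that guide RNA methylation, stood at 99.1, 105 and 104 CPM against 87.9, 85.2 and 90.7 CPM (log2 fold change 0.22 with an SE of 0.040, adjusted p = 0.00434 by edgeR). Both NOP58 and UTP14A (0.27, SE 0.049, fractional counts) were robust.

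Several other lists had no call. With edgeR no member passed among 41 interferon-stimulated genes, 25 genes of nucleic acid sensing and class I presentation, 30 NF-kB cytokine targets, 53 oxidative phosphorylation genes, 21 histone genes or 29 heat shock genes. At an unadjusted p below 0.05 these 6 lists held 7, 3, 10, 5, 3 and 6 genes, beside 2528 of all 15062 genes tested (16.8%). DESeq2 called 2 interferon-stimulated genes and none in the other 5 lists. GC removal called 1 NF-kB target and 1 heat shock gene, and thinning called 1 histone gene. Leaving out 1 library called 1 gene in each of 4 cases: an interferon-stimulated gene without GSK-484 replicate 2, an NF-kB target without GSK-484 replicate 1, and an oxidative phosphorylation gene without GSK-591 replicate 3 or GSK-484 replicate 1. Their medians lay between 0.0083 and 0.031 and were all below zero under total-count scaling. In the NF-kB list, IL1B was abundant at 1072, 1102 and 1121 CPM against 1014, 1005 and 1035 CPM; its groups did not overlap, and the test did not pass (log2 fold change 0.11 with an SE of 0.038, adjusted p = 0.137 by edgeR).

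Each group was then set against the mean of the TP-472 and UNC0642 groups, to give the values of each side. These contrasts share libraries with the main one and are given side by side. The 2 reference groups differ from each other in some genes, so a value against their mean can rest on 1 of them. INPP5D, for example, averaged 2.99 CPM with TP-472 and 4.8 CPM with UNC0642, beside 4.77 CPM with GSK-591. GSK-591 differed from that mean in 1759 genes (11.7%; 959 higher, 6.37%, and 800 lower, 5.31%), and GSK-484 in 27 (0.179%; 23 higher, 0.153%, and 4 lower, 0.0266%). The first count was 809, 947 and 1063 without GSK-591 replicate 1, 2 or 3, 1119 without UNC0642 replicate 2, and up to 1759 without any other library. The second was 11, 68 and 7 without GSK-484 replicate 1, 2 or 3, 10, 11 and 9 without TP-472 replicate 1, 2 or 3, and 19, 11 and 6 without UNC0642 replicate 1, 2 or 3. Under total-count scaling the GSK-591 calls were 397 higher and 1325 lower. A direct test of the difference between the groups is the main comparison itself.

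SRSF4 was 0.28 (SE 0.034) above the mean of the other 2 treated groups with GSK-591 and -0.050 (SE 0.034) with GSK-484. CLASRP gave 0.36 (SE 0.038) and 0.035 (SE 0.038), and PHF7 gave -0.68 (SE 0.12) and 0.093 (SE 0.10). ASNS gave -0.23 (SE 0.034) and -0.039 (SE 0.033). Its mean was 234 CPM with TP-472 and 194 CPM with UNC0642, beside 182 CPM with GSK-591 and 208 CPM with GSK-484. SLC7A11 gave -0.56 (SE 0.056) and -0.15 (SE 0.052), and BRCA1 gave -0.38 (SE 0.052) and -0.16 (SE 0.049); the GSK-484 values were not called.

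PLK1 stood 0.049 (SE 0.032, edgeR adjusted p = 0.345) above that mean with GSK-591 and -0.14 (SE 0.032, edgeR adjusted p = 0.0687) below it with GSK-484, so neither contrast was called. MDC1 gave 0.12 (SE 0.061) and -0.19 (SE 0.061), likewise uncalled. PLK2 and CTGF were above the mean in both groups: PLK2 by 0.35 (SE 0.027) and 0.19 (SE 0.027), and CTGF by 0.34 (SE 0.027) and 0.18 (SE 0.027), each called in both contrasts (GSK-484, edgeR adjusted p = 0.00416). With GSK-484 neither gene was above its mean in untreated cells. Mean PLK2 levels were 139 CPM with TP-472, 150 with UNC0642, 165 with GSK-484, 185 with GSK-591 and 166 in untreated cells. For CTGF these means were 152, 173, 184, 205 and 198 CPM.

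**Figure D4:**
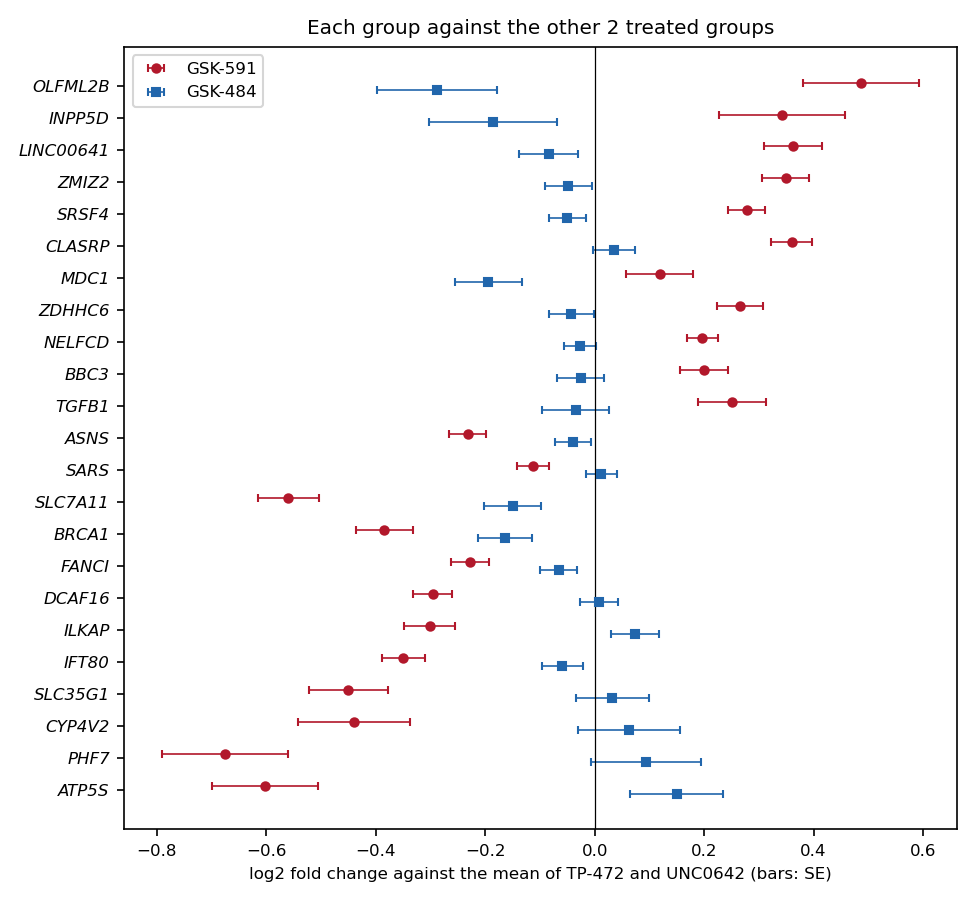
Log2 fold change of 23 named genes (rows) in GSK-591 cells (red circles) and in GSK-484 cells (blue squares) against the mean of TP-472 and UNC0642 cells, with SE bars. SRSF4, CLASRP and ZMIZ2 lie to the right of zero with GSK-591 and near zero with GSK-484, and PHF7, ATP5S and DCAF16 lie to the left with GSK-591.

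In that reference, where 11.7% of all genes were called with GSK-591 and 0.179% with GSK-484, GSK-591 called 11 SR factors of 22, all higher, 16 p53 targets of 38, all higher, 12 recombination and Fanconi genes of 38, all lower, and 10 stress response genes of 33, all lower. Other lists went both ways, with 1 higher and 10 lower of 49 in G1/S and replication, 1 higher and 7 lower of 45 in G2/M, and 9 higher and 4 lower of 32 in the TGF-beta pathway. With GSK-484 the first 4 lists held 0, 1, 0 and 0 calls, and the other 3 held none. The spliceosome list, drawn up after the values had been seen, held 20 higher and 3 lower of 97 with GSK-591 and no call with GSK-484. Genes of the undifferentiated state were higher in 12 of 32 with GSK-591 and in 5 with GSK-484, and lower in none. CDKN1A was higher by 0.22 (SE 0.034, edgeR adjusted p = 0.000296) with GSK-591 and by 0.093 (SE 0.034, edgeR adjusted p = 0.299) with GSK-484. MDM2 was at 0.14 (SE 0.039) and 0.15 (SE 0.038), of which the first was called (edgeR adjusted p = 0.0237) and the second not (0.114); the direct contrast between these groups was -0.009 (SE 0.045).

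Base composition differed between the 2 sets of called genes. Median transcript GC content was 53.43% in higher genes, 42.07% in lower genes and 48.18% in all genes tested with a transcript match (14119 of 15062, 93.7%). Lower genes also had longer transcripts (median 4528 against 3327 bases in higher genes) and more exons (11 against 9). Across all genes, which are not independent replicates and share the same libraries, the log2 fold change had a Spearman correlation of 0.174 with GC content. GC slopes per library, in log2 CPM per 10 percentage points, were 0.065, 0.015 and 0.013 with GSK-591 and 0.046, 0.0090 and -0.031 with GSK-484.

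With the GC trend of each library removed, 489 of 14119 genes were called (3.46%; 285 higher, 2.02%, and 204 lower, 1.44%), and 330 of the 381 called genes with a GC value were called again in the same direction. Median GC content was then 49.14% in higher and 43.66% in lower genes. SRSF4, CLASRP, SNRNP70, PHF7, ATP5S, DCAF16, ASNS and SLC7A11 stayed called. Of the spliceosome list 21 were higher and 2 lower after removal, and of the stress response list 4 were lower, while BBC3 (edgeR adjusted p = 0.0654), PSAT1 (0.0591) and EWSR1 (0.0718) no longer passed.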

How the data were processed

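The deposited table holds expected counts per gene from RSEM for 26475 genes in 21 poly-A RNA libraries, not scaled between libraries. The submitters' processing notes name Bowtie2 2.1.0, RSEM 1.2.15 and build hg38, in no stated order; the sources used here give no annotation, read filter or strand, so overlapping and antisense genes cannot be separated. Expected counts were rounded, filtered (filterByExpr, minimum count 10, minimum total 15), TMM-scaled and fitted over all 21 libraries with group as the only term (edgeR 4.0.16, limma 3.58.1, R 4.3.3; two-sided quasi-likelihood test, Benjamini-Hochberg, threshold 0.05). Genes with counts more than 0.01 from whole numbers in any of the 6 libraries are marked fractional.

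Named genes were the 10 largest rises and falls and the 5 smallest p in each direction (at least 3 CPM, no overlap, whole counts), the 4 smallest p of each list, the PRMT, PRMT5 partner and PADI genes, and 3 fractional rises and falls. The members, the 36 lists (1111 genes tested) and the rule were chosen with earlier results of these data known. Other splicing factors of the added spliceosome list were named because they were called.

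Alternatives were DESeq2 1.42.0, RLE and total-count scaling, no filter, a replicate block, the groups alone, GC removal (loess, span 0.3, GENCODE 29 transcripts), thinning, no ribosomal RNA genes, a 1.2-fold threshold and each library left out; leaving out JQ-1 and 2 versions of the groups alone were added after the values were seen. On simulated data for this comparison (15062 genes) the fit recovered 38.8% of 1.2-fold, 77.6% of 1.5-fold and 86.4% of 2-fold changes and called 3 unchanged genes. The 2 groups alone recovered 31.3%, 77.6% and 78.8% and called 11. All simulated libraries were drawn with the spread of each gene in the 21-library fit (common value 5.09%). The wider common spreads of the GSK-484 group (7.34%) and of the 2 groups fitted alone (6.05%) were not used. The simulation therefore cannot give the number of false calls in the real comparison.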

Additional observations from a re-analysis of the deposited data

How the results depend on the processing

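Of the 399 genes called between GSK-591 and GSK-484, DESeq2 raised the count to 624, thinning every library to the smallest total lowered it to 263, and a 1.2-fold threshold left 0 (262 at an unadjusted p below 0.05). Fitted alone, the 2 groups gave 0 with edgeR, 144 with DESeq2 and 20 with the GC trend removed; the cause was not tested. Leaving out 1 library gave 108 to 361. The count stayed within 1.5 times under RLE scaling, total-count scaling, no filter, GC removal, no ribosomal RNA genes and without JQ-1. For GSK-591 against TP-472 and UNC0642 the 1.2-fold threshold left 4, the groups alone with GC removed gave 2673, and leaving out 1 library gave 809 to 1759. For GSK-484 against TP-472 and UNC0642, 27 calls became 123 with DESeq2, 68 with DESeq2 on the groups alone, 77 with GC removed, 5 after thinning, 3 with the groups alone and GC removed, 11 without JQ-1, and 0 under total-count scaling, the groups alone or the 1.2-fold threshold; leaving out 1 library gave 6 to 68.

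Replicate numbers did not pair the samples: deviations of same-numbered GSK-591 and GSK-484 libraries correlated at -0.033, 0.015 and -0.0024. With the replicate number as a block, 347 genes were called (192 higher, 155 lower). No called gene named here changed direction under any alternative, which groups without overlap all but fix in advance. The number of these genes that kept their call was 99 of 100 with DESeq2, 65 of 102 under total-count scaling and 0 of 102 with the groups fitted alone by edgeR. Depth limits the genes under about 3 CPM, where fitted changes are widest.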

Other observations

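Some called genes belonged to no list and were named after their values were seen. OXCT1, the mitochondrial enzyme of ketone body use, stood at 34.4, 34.5 and 37.0 CPM with GSK-591 and 45.1, 47.7 and 47.1 CPM with GSK-484 (log2 fold change -0.40 with an SE of 0.051, adjusted p = 0.000457 by edgeR; fractional counts). PCK2, the mitochondrial phosphoenolpyruvate carboxykinase, stood at 29.6, 31.3 and 29.2 CPM against 39.8, 37.0 and 34.9 CPM (log2 fold change -0.31 with an SE of 0.059, adjusted p = 0.00572 by edgeR). Both were called in every fit that left out 1 library. SLC1A4, a transporter of neutral amino acids, was lower by a log2 fold change of -0.25 (SE 0.051), and ALDH1L2, a mitochondrial folate enzyme, by -0.46 (SE 0.11). PMEPA1, a TGF-beta induced membrane protein, was higher by 0.16 (SE 0.031), and IGFBP3 by 0.18 (SE 0.038).

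Among metabolic and lysosomal lists, TKT, the transketolase of the pentose phosphate pathway, was higher, at 652, 628 and 635 CPM against 477, 577 and 556 CPM (log2 fold change 0.25 with an SE of 0.052, adjusted p = 0.0135 by edgeR). Its lowest library was GSK-484 replicate 1, and without it the log2 fold change was 0.17 (edgeR adjusted p = 0.0366). Of 25 NRF2 targets tested, 1 was higher (TKT) and 1 lower (SLC7A11), 8.0% called. The lysosomal protease gene CTSB was higher by 0.15 (SE 0.033), in a list with 2 of 30 higher (6.67%). PMVK of cholesterol synthesis (log2 fold change -0.32, SE 0.068) and the histone demethylase gene KDM1B (-0.30, SE 0.058) were lower. Each was the only call of its list, of 34 (2.94%) and 40 (2.5%) tested, near the 2.65% of all genes. Of 35 hypoxia and glycolysis genes, 1 was higher (ALDOA) and 1 lower (ENO2), 5.71% called.

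Genes with fractional counts made up 25.1% of the calls and 23.6% of the genes tested, and are uncertain because reads were shared with other genes. The largest rises among them were those of RFPL4A (log2 fold change 1.29, SE 0.35), MSTO2P (0.66, SE 0.17) and ZNF219 (0.40, SE 0.10). The largest falls were those of GPRASP1 (-1.83, SE 0.32), at 0.193, 0.337 and 0.402 CPM against 1.25, 1.22 and 0.883 CPM, NUTM2A (-0.67, SE 0.18) and DHRS4 (-0.53, SE 0.11).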
